A study of Mus musculus with 62 samples.

Results

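Well-known target genes of glucocorticoid signalling (Fkbp5, Tsc22d3, Sgk1, Zbtb16, Plin4, Tgm2, Pdk4, Arrdc2 and Errfi1), together with Nr3c1, the gene of the glucocorticoid receptor itself, were followed through 5 regions of the mouse brain after ethanol. They were picked by gene name, 10 of the 56415 genes in the count table, with their response to ethanol already known from these same samples. The values in the ethanol, saline and interaction comparisons are therefore a description of chosen genes and carry no test, whereas the comparisons between brain regions did not enter the choice and were tested. All 10 genes had enough reads to be measured in every comparison, and over the 61 libraries used the lowest count was 38 (Plin4).

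The study asked how alcohol changes chromatin and transcription in brain regions linked to substance use. Male C57BL/6J mice aged 8 to 10 weeks received 2 g/kg ethanol (a 20% solution) or saline by intraperitoneal injection, either 1 time (acute) or daily for 10 days (chronic). Tissue was taken 4 h after the final dose. There were 4 mice in each of the acute saline, acute ethanol, chronic saline and chronic ethanol conditions. Poly(A) RNA was sequenced from the cortex (CTX in the plots), the dorsal and ventral parts of the hippocampus (dHPC and vHPC) and the dorsal and ventral parts of the striatum (DS and VS), giving 62 samples from 16 mice in 20 groups, of which 18 hold 3 mice and 2 hold 4 (acute ethanol in the dHPC and chronic ethanol in the DS). Runs of 5 values below follow this order of regions. All groups were injected, so no group shows the level in a mouse that was never handled. Acute and chronic mice also differed in the number of injections, so the number of injections and anything else that set the cohorts apart cannot be told apart.

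Glucocorticoids (corticosterone in the mouse) are released from the adrenal gland under stress and bind the glucocorticoid receptor, which waits in the cytoplasm in a complex with HSP90 and its co-chaperones. The bound receptor moves to the nucleus, binds DNA as a dimer at palindromic glucocorticoid response elements, and raises or lowers the transcription of nearby genes within hours. FKBP5 is the best known feedback arm: it is a co-chaperone that lowers the receptor's affinity for hormone, and its own gene is among the targets most readily induced in brain. In the hippocampus the high-affinity mineralocorticoid receptor (Nr3c2) is abundant alongside the glucocorticoid receptor.

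Libraries of the cortex and dHPC held 43173748 to 71164766 counts, and those of the vHPC, DS and VS held 8149628 to 46564992, from another library kit and sequencer. Each ethanol comparison lies within 1 region, so this batch divides no group, and regions were compared only within a batch. Chronic saline replicate 2 of the DS, the library with 8149628 counts, had 0 counts on 6 chromosomes (7, 8, 9, X, Y and the mitochondrial one) and on chromosome 6 beyond position 22875501, and was the only library of the 62 with such a gap. Tsc22d3 (chromosome X), Zbtb16 (chromosome 9) and Arrdc2 (chromosome 8) lie on the missing chromosomes, and that library was left out of every value below, which leaves 2 chronic saline mice in the DS. Region markers matched the labels in part: the summed level of 8 markers of excitatory neurons of the cortex and hippocampus was 1889 to 2072 CPM (counts scaled to a common library size) in the acute saline cortex, but it was also 395 to 502 CPM in the acute saline DS against 26.9 to 111 CPM in the acute ethanol DS. In bulk tissue, fewer cells of a type and less RNA per cell cannot be told apart.

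Sgk1 and Fkbp5 hold the full palindrome that the glucocorticoid receptor is known to bind, and the sequences are shown because these genes carry much of what follows. The motif searched was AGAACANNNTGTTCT, 15 bases that read the same on both strands, made of the hexamers AGAACA and TGTTCT around a 3-base spacer. On chromosomes 1 to 19, X and Y of GRCm39 it occurred 639 times, inside 278 protein-coding genes or 1.28% of them. Among the 10 genes it was found inside Sgk1 and Fkbp5, by the gene bounds that come with the counts. That share takes no account of gene length. Within 10 kb and 50 kb of the gene start, 0 of the 10 had it, beside 0.328% and 2.03% of protein-coding genes. Within 100 kb 1 of the 10 had it (Fkbp5), beside 4.28%. By these bounds the Sgk1 match lies 111517 bases after the gene start. The isoform starts, exons and introns of the sites follow the GENCODE M39 annotation. The windows below run 5′ to 3′ on the strand of the gene, with the 15 matching bases in capitals.
Sgk1, chr10:21869587-21869627, plus strand, 965 bases before the start of isoform Sgk1-201 and in no exon: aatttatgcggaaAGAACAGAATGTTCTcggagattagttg
Fkbp5, chr17:28639282-28639322, minus strand, in intron 5 of isoform Fkbp5-201: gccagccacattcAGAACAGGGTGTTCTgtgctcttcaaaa
Fkbp5, chr17:28661380-28661420, minus strand, in intron 1 of isoform Fkbp5-201: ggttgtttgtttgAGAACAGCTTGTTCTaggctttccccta
The Sgk1 match lies close to the start of an annotated isoform, Sgk1-202, and so also falls in a promoter window of the RefSeq promoter set, from 250 bases before to 50 bases after a start site. That window is chr10:21993640-21993939 on the plus strand of GRCm38.p6, an older build whose coordinates differ from those above, with the matching hexamers in capitals.
Sgk1 promoter: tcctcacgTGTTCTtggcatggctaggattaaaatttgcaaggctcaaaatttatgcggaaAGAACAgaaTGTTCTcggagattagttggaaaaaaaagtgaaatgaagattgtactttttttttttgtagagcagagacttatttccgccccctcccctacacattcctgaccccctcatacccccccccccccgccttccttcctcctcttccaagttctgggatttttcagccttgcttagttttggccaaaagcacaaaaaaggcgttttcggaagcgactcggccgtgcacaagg
In it the full motif sits at -189 to -175 from the start, and a further TGTTCT sits at -242 to -237. Of 32851 promoters of that length, 3 (0.00913%) hold the full motif and 6233 (19%) hold at least 1 of the hexamers. The set held 15 promoters of 7 of the 10 genes, and 4 of those (3 of Sgk1 and 1 of Tsc22d3) hold a hexamer. The promoters of Zbtb16, Tgm2 and Nr3c1 were not analysed here. A match is a description of letters and not of binding, which was not measured.

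Fkbp5 (ENSMUSG00000024222, GRCm39 17:28618068-28736498, minus strand) was higher after acute ethanol in all 5 regions, with no overlap between the ethanol and saline mice in any of them. In the cortex it stood at 32.7, 37.9 and 41.1 CPM in the 3 saline mice and at 53.7, 80.0 and 78.3 CPM in the 3 ethanol mice. In the DS it stood at 48.4, 47.4 and 48.0 CPM with saline and at 74.2, 89.4 and 93.7 CPM with ethanol. The DS saline mice were nearly level with each other, and every ethanol mouse was well above them. In the VS the values were 50.01, 51.4 and 49.2 CPM against 72.5, 62.8 and 91.9 CPM, and in the vHPC they were 61.1, 67.4 and 90.4 CPM against 99.5, 111 and 128 CPM. The separation was narrowest in the dHPC, with 65.0, 76.3 and 58.9 CPM in saline mice and 76.7, 82.1, 89.7 and 107 CPM in the 4 ethanol mice. The log2 fold change (± SE) was 0.93 ± 0.13 in the cortex, 0.80 ± 0.09 in the DS, 0.62 ± 0.15 in the vHPC, 0.58 ± 0.14 in the VS and 0.42 ± 0.12 in the dHPC, or 1.34- to 1.90-fold.

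**Figure D1:**
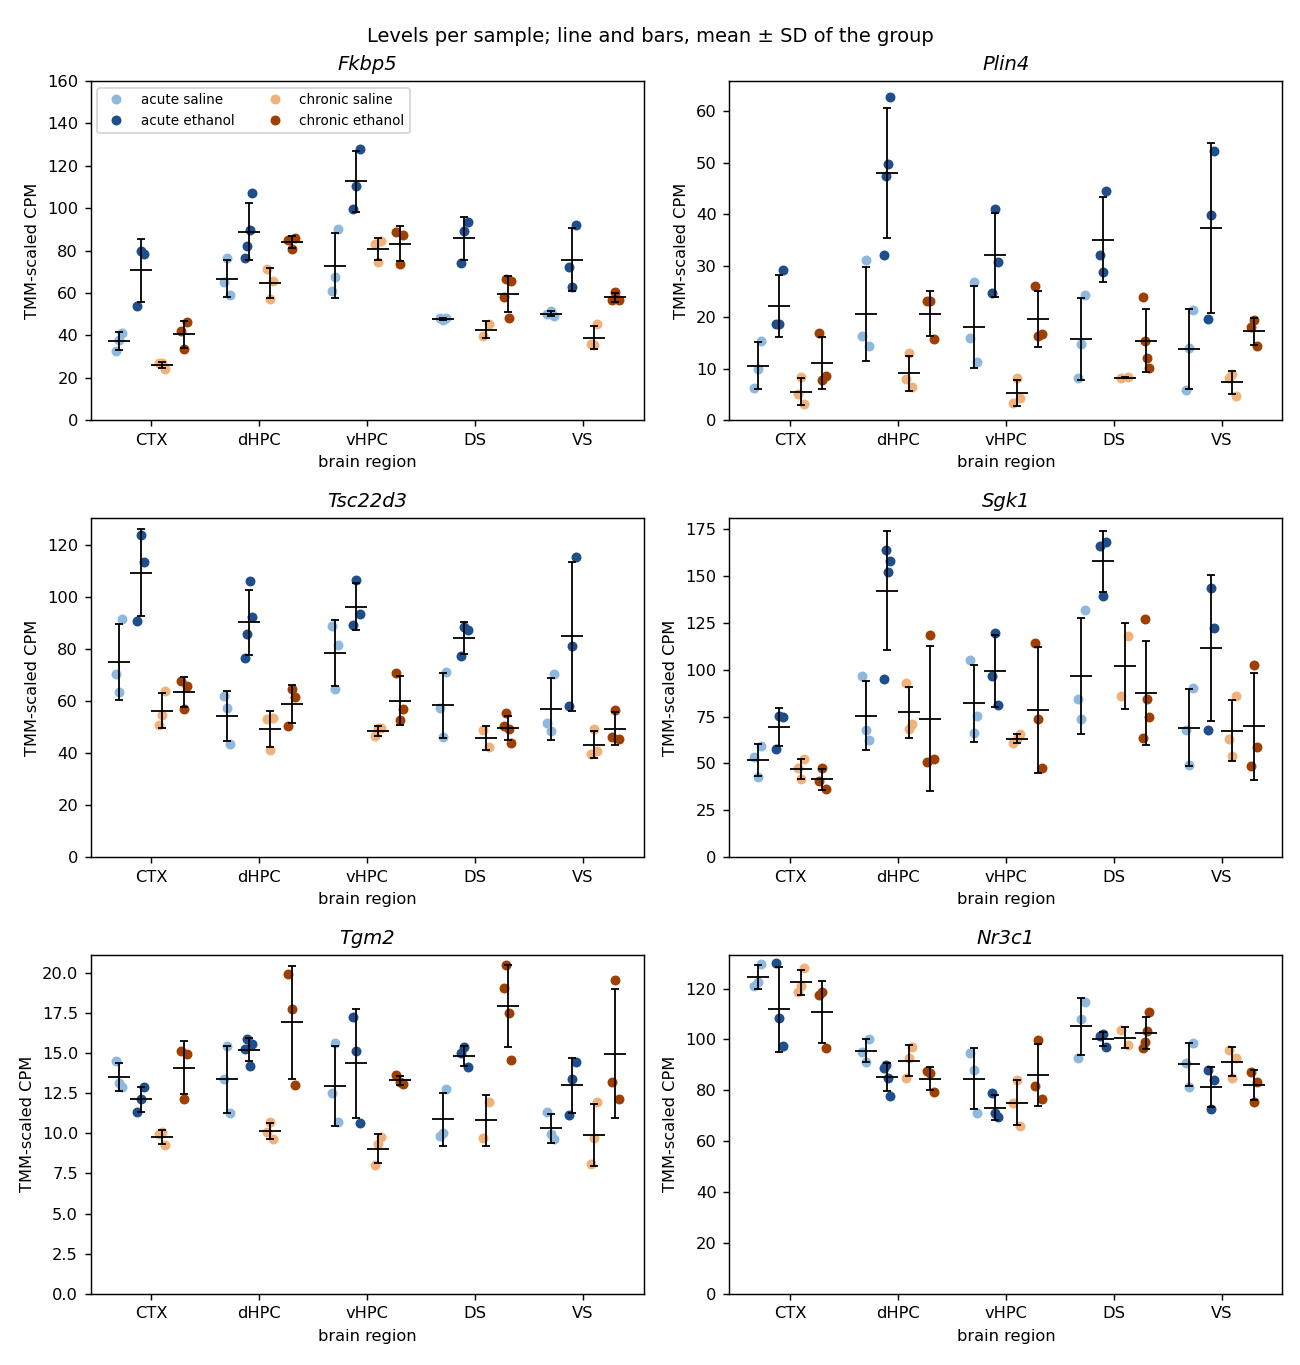
Normalised level (CPM, linear axis from 0) of Fkbp5, Plin4, Tsc22d3, Sgk1, Tgm2 and Nr3c1 in each sample, by region and condition, with each point 1 mouse and the line and bars the group mean ± SD; the DS chronic saline replicate left out is not drawn. Fkbp5 in the 3 acute ethanol mice of the cortex sits at 53.7 to 80.0 CPM, above the 32.7 to 41.1 CPM of acute saline and the 24.2 to 26.9 CPM of chronic saline.

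Tsc22d3 (ENSMUSG00000031431, X:139440277-139501408, minus strand) encodes GILZ, a leucine zipper protein that mediates anti-inflammatory actions of glucocorticoids. It too was higher after acute ethanol in 5 of 5 regions, by 0.28 to 0.74 on the log2 scale. In the dHPC the 3 saline mice had 61.9, 57.5 and 43.3 CPM and the 4 ethanol mice had 76.7, 85.6, 106 and 92.3 CPM. In the DS the values were 57.4, 46.3 and 71.3 CPM against 77.2, 88.4 and 87.4 CPM. The groups did not overlap in the dHPC, the DS and, by a margin too small to show at 3 digits (highest saline mouse 89.0 CPM, lowest ethanol mouse 89.0 CPM), the vHPC. In the cortex (70.5, 63.4 and 91.3 CPM against 90.9, 124 and 113.3 CPM) and the VS (51.5, 48.5 and 70.5 CPM against 58.1, 81.2 and 115 CPM) 1 saline mouse stood above the lowest ethanol mouse.

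Sgk1 (ENSMUSG00000019970, 10:21758083-21875792, plus strand) encodes a serine/threonine kinase that regulates ion channels and transporters. Its mean was higher after acute ethanol in all 5 regions, but it varied widely between mice of 1 group. In the DS the groups were apart, with 84.3, 73.7 and 132 CPM in saline mice and 166, 139 and 168 CPM in ethanol mice (log2 fold change 0.66 ± 0.16). In the dHPC 3 of 4 ethanol mice stood at 152 to 164 CPM, while the fourth, at 94.96 CPM, lay just under the highest saline mouse at 96.4 CPM (0.92 ± 0.19). In the vHPC the groups overlapped over most of their range, with 105, 66.0 and 75.1 CPM against 96.9, 119.6 and 81.3 CPM (0.26 ± 0.20).

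Plin4 (ENSMUSG00000002831, 17:56407591-56416803, minus strand), which encodes perilipin 4, a coat protein of lipid droplets, had the largest fold changes of the 10 genes in 4 of 5 regions after acute ethanol. In the dHPC it stood at 16.4, 31.1 and 14.4 CPM in saline mice and 32.1, 47.5, 49.8 and 62.9 CPM in ethanol mice. In the VS it ran from 5.86 to 21.4 CPM with saline and from 19.7 to 52.4 CPM with ethanol. Its fold change was 1.77 to 2.64 over the 5 regions and its SE, 0.25 to 0.42 on the log2 scale, was also among the widest: in the DS the saline mice alone spanned 8.23 to 24.3 CPM. The groups did not overlap in the cortex, dHPC and DS, and did in the vHPC (11.3 to 26.8 CPM against 24.8 to 40.9 CPM) and VS.

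Arrdc2 (ENSMUSG00000002910, 8:71287773-71292304, minus strand) belongs to the alpha-arrestins, adaptor proteins for the trafficking of membrane receptors. It had log2 fold changes of 0.52 to 1.13, again with wide scatter within groups. In the VS the saline mice had 7.09, 8.20 and 10.3 CPM and the ethanol mice 8.24, 22.5 and 26.4 CPM, so that 1 ethanol mouse lay among the saline mice. The same was seen in the dHPC, with 9.78 to 15.1 CPM in saline mice and 14.5, 27.7, 28.03 and 34.3 CPM in ethanol mice. In the vHPC alone the groups were apart, at 10.8 to 14.3 CPM against 17.9 to 26.1 CPM.

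Pdk4 (ENSMUSG00000019577, 6:5483351-5496261, minus strand) encodes pyruvate dehydrogenase kinase 4, which restrains the entry of pyruvate into the citric acid cycle. It was higher after acute ethanol by 0.47 in the dHPC, 0.49 in the DS and 0.62 in the vHPC on the log2 scale, with no overlap in these 3 regions. In the vHPC the values were 9.73, 7.34 and 7.499 CPM against 11.7, 13.8 and 12.6 CPM. In the VS it differed by 0.10 ± 0.22 and the groups overlapped. Zbtb16 (ENSMUSG00000066687, 9:48565597-48747522, minus strand), which encodes the transcription factor PLZF, was apart in 1 region, the vHPC (54.6, 61.7 and 76.9 CPM against 84.2, 83.1 and 108 CPM, log2 fold change 0.50 ± 0.15), and in the DS its saline and ethanol values covered the same range (15.9 to 24.8 CPM and 12.0 to 29.3 CPM).

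Tgm2, Errfi1 and Nr3c1 were little or not higher after acute ethanol. Tgm2 (ENSMUSG00000037820, 2:157958322-157988356, minus strand), tissue transglutaminase, ran from -0.15 ± 0.09 in the cortex to 0.40 ± 0.15 in the DS on the log2 scale, and was apart only in the DS (9.84 to 12.8 CPM against 14.1 to 15.3 CPM, 1.32-fold). Errfi1 (ENSMUSG00000028967, 4:150938376-150953349, plus strand), a feedback inhibitor of the EGF receptor, was apart only in the dHPC (28.6 to 35.4 CPM against 36.2 to 41.8 CPM, 0.27 ± 0.08). Nr3c1 (ENSMUSG00000024431, chromosome 18), the receptor gene, was lower in all 5 regions, by 0.12 to 0.23 on the log2 scale. In the dHPC its 4 ethanol mice, at 77.6 to 90.1 CPM, lay below the 3 saline mice, at 91.3 to 100.4 CPM, and in the other 4 regions the groups overlapped.

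**Figure D2:**
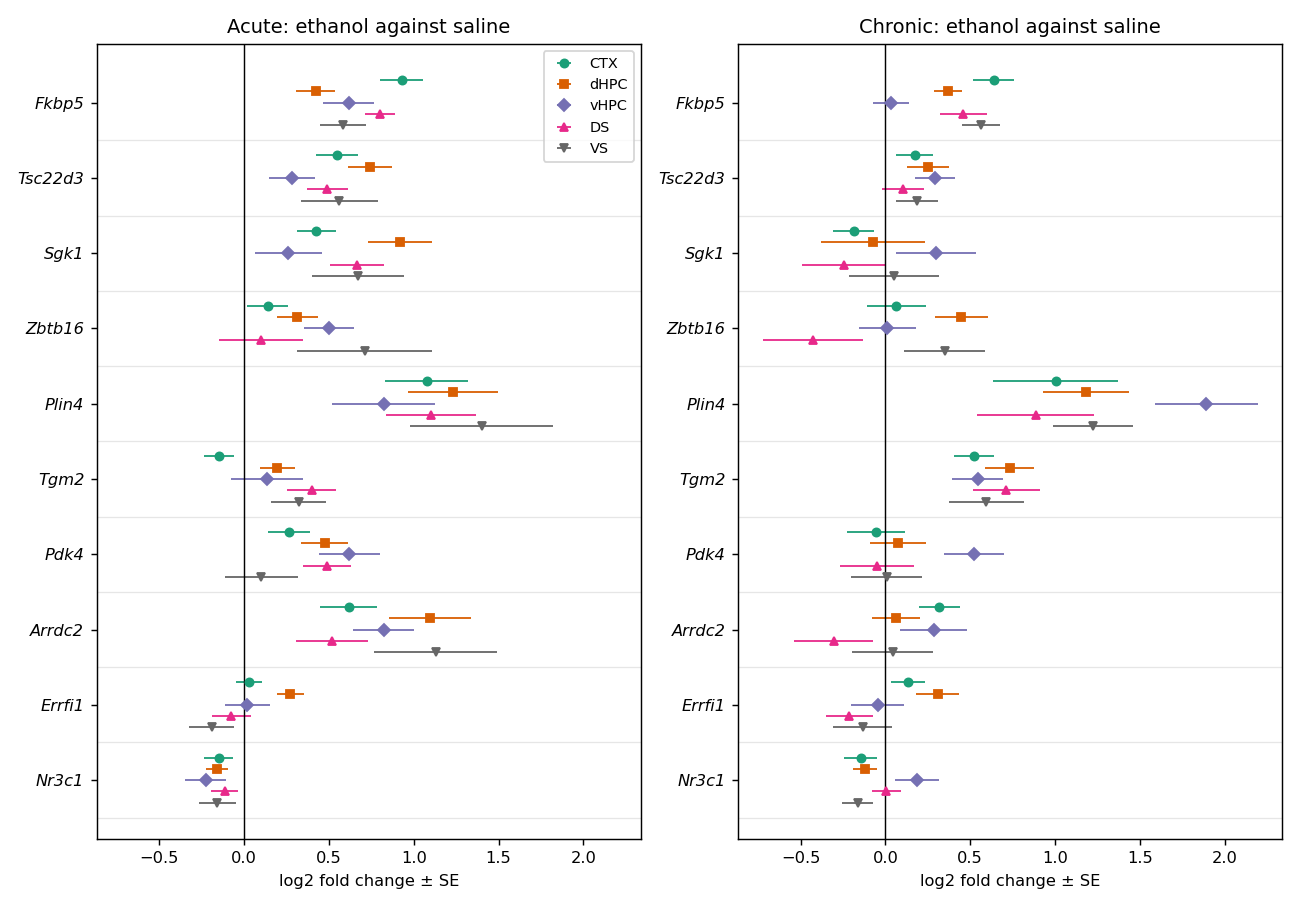
Log2 fold change (± SE) of ethanol over saline for each of the 10 genes in each region, acute on the left and chronic on the right. Fkbp5 and Plin4 lie to the right of 0 in every region in both panels, Sgk1 and Arrdc2 scatter around 0 in the chronic panel, and Tgm2 lies at 0.52 to 0.73 in the chronic panel.

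With edgeR's quasi-likelihood test and a false discovery rate (FDR) below 0.1, acute ethanol called 3 of the 10 genes in the cortex (Fkbp5, Tsc22d3 and Plin4) and 5 in the DS (the same 3 with Sgk1 and Pdk4), beside 1.99% and 5.15% of all genes tested. It called 0 in the dHPC, vHPC and VS, beside 0.042%, 0% and 0.0399% of all genes. At an unadjusted p below 0.05 there were 5, 9, 5, 7 and 5 of the 10 in the 5 regions, beside 12.5%, 7.88%, 11.9%, 15.5% and 7.32% of all genes. DESeq2 on the same counts called 2, 6, 3, 3 and 2 of the 10 in the 5 regions, beside 5.21%, 1.6%, 4.46%, 8.14% and 0.943% of all genes. Fkbp5 was among the DESeq2 calls in 5 of 5 regions and Arrdc2 in 3 (dHPC, vHPC and VS). The number of the 10 that stood higher in every ethanol mouse than in any saline mouse was 2, 5, 5, 6 and 1, beside 8.39%, 3.43%, 9.65%, 14.2% and 6.57% of all genes. The median log2 fold change of the 10 was 0.34, 0.45, 0.39, 0.49 and 0.57, with a median over all genes of 0.00 in each region. Since the genes were chosen on these contrasts, nothing is read from their counts against those shares.

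With each mouse left out in turn, Fkbp5 was called in 6 of 6 cortical and 6 of 6 DS fits, and the other calls did not hold throughout. The genes were chosen on these contrasts, so this describes the dependence of calls on single mice and is no support for them. The shares of all genes in these fits are not given, so nothing is read from the counts per fit. Tsc22d3 was called in 2 of 6 fits in either region, Plin4 in 2 of 6 for the cortex and 4 of 6 for the DS, and in the DS Sgk1 in 2 of 6 and Pdk4 in 0 of 6. In the cortex the number of genes called was 1 without saline mouse 2, saline mouse 4, ethanol mouse 4 or ethanol mouse 5, 5 without saline mouse 6 and 7 without ethanol mouse 2. In the DS it was 2 without saline mouse 2, 1 without saline mouse 4, 5 without saline mouse 6, 3 without ethanol mouse 3 or 4 and 1 without ethanol mouse 5. Cell type markers moved with treatment in both regions. In the acute cortex all 10 myelin markers were higher with ethanol (6 called; summed level 2444 to 3252 CPM against 2086 to 2350 CPM), 9 of 10 endothelial markers were lower (3 called; 213 to 222 CPM against 241 to 258 CPM), and all 10 mural markers were lower (1 called; 166 to 181 CPM against 201 to 210 CPM). In the acute DS all 8 markers of cortical and hippocampal excitatory neurons were called lower, with Rtn4rl2 at 0 counts in 1 of 3 ethanol libraries, and 7 of 9 markers of striatal projection neurons were called higher (8198 to 8442 CPM against 5987 to 7252 CPM). The same excitatory markers stood at 47.4 to 145 CPM with ethanol against 338 to 831 CPM with saline in the acute VS, with Emx1 at 0 counts in 1 ethanol library, and the 5 dentate granule neuron markers at 377 to 568 CPM against 147 to 278 CPM in the acute vHPC. Their part in the values of the 10 genes was not tested.

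After 10 daily doses, Fkbp5, Plin4 and Tgm2 stood higher with ethanol in all 5 regions and were apart from saline in at least 4 of them, whereas Sgk1 and Arrdc2 went either way. Fkbp5 was apart from saline in 4 of 5 regions. In the cortex it stood at 26.9, 26.9 and 24.2 CPM in chronic saline mice and 41.9, 33.6 and 46.1 CPM in chronic ethanol mice (0.64 ± 0.12). In the VS it stood at 35.8, 35.7 and 45.4 CPM against 56.5, 60.5 and 56.6 CPM (0.57 ± 0.11), and in the dHPC at 71.2, 57.4 and 65.5 CPM against 85.1, 81.0 and 86.1 CPM (0.37 ± 0.08). In the vHPC the groups overlapped, at 82.9, 74.6 and 84.8 CPM against 88.6, 73.8 and 87.5 CPM (0.03 ± 0.11).

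Plin4 had the largest fold change of the 10 in each of the 5 chronic comparisons, 1.85- to 3.71-fold. In the vHPC it stood at 3.39, 8.15 and 4.23 CPM in saline mice and 26.0, 16.4 and 16.8 CPM in ethanol mice (1.89 ± 0.30). In the VS the values were 8.23, 8.99 and 4.77 CPM against 18.1, 19.4 and 14.4 CPM (1.22 ± 0.24). The groups overlapped only in the cortex, where 1 ethanol mouse at 7.74 CPM lay below a saline mouse at 8.44 CPM. Plin4 overlaps the coding gene Hdgfl2 on the other strand, and Hdgfl2 differed by -0.05 to 0.14 on the log2 scale in the 5 chronic and 0.06 to 0.24 in the 5 acute comparisons, with 0 of 10 called.

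Tgm2 was higher with chronic ethanol in every region, 1.44- to 1.66-fold, with no overlap in any of the 5. In the dHPC it stood at 10.1, 10.7 and 9.66 CPM in saline mice and 19.9, 17.8 and 13.03 CPM in ethanol mice (0.73 ± 0.15). In the DS the 2 saline mice had 9.68 and 11.9 CPM and the 4 ethanol mice 19.1, 20.5, 17.5 and 14.6 CPM (0.71 ± 0.20). In the cortex the values were 9.98, 10.1 and 9.29 CPM against 15.1, 12.2 and 14.9 CPM (0.52 ± 0.12). Rprd1b, a coding gene that overlaps Tgm2 on the other strand, differed by 0.02 to 0.19 on the log2 scale in the 5 chronic comparisons, with 0 called.

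Sgk1 ran from -0.24 ± 0.25 in the DS to 0.30 ± 0.24 in the vHPC with chronic ethanol, and the groups overlapped in all 5 regions. In the dHPC 2 of the 3 ethanol mice, at 50.6 and 52.6 CPM, were lower than every saline mouse (68.1 to 92.9 CPM), and the other, at 119 CPM, was higher than all of them. Arrdc2 ran from -0.31 ± 0.23 in the DS to 0.32 ± 0.12 in the cortex, where alone it was apart (7.76 to 9.93 CPM against 10.6 to 11.5 CPM). Tsc22d3 was higher by 0.10 to 0.29 and was apart in the vHPC, and Pdk4 was likewise apart only in the vHPC (6.18 to 7.81 CPM against 9.24 to 10.6 CPM, 0.52 ± 0.18). Zbtb16 was apart in the dHPC (33.6 to 55.6 CPM against 60.0 to 60.8 CPM). Nr3c1 ran from -0.16 to 0.18, and its ethanol mice lay below its saline mice in the cortex (96.8 to 119 CPM against 119 to 128 CPM, -0.15 ± 0.10).

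In the chronic comparisons edgeR called 0 of the 10 genes in each region, beside 0%, 0%, 0.0555%, 0% and 0% of all genes. At an unadjusted p below 0.05 there were 4, 5, 4, 3 and 3 of the 10, beside 10.4%, 8.23%, 9.51%, 7.53% and 9.95% of all genes. DESeq2 called 2 (Fkbp5 and Tgm2), 3 (Fkbp5, Plin4 and Tgm2), 1 (Plin4), 0 and 2 (Fkbp5 and Plin4), beside 0.835%, 1.25%, 1.17%, 0.878% and 2.46% of all genes. The number of the 10 apart and higher was 3, 4, 4, 3 and 3, beside 8.81%, 7.6%, 8.32%, 9.6% and 8.87% of all genes, and the median log2 fold change of the 10 was 0.15, 0.28, 0.29, -0.02 and 0.12. Tissue markers also differed here. The 10 choroid plexus markers summed to 944 to 3288 CPM with ethanol against 27.9 to 214 CPM with saline in the chronic vHPC (6 called higher; Folr1 and Kcnj13 each at 0 counts in 1 saline library). The excitatory neuron markers stood at 28.8 to 169 CPM against 422 to 598 CPM in the chronic DS while the chronic VS had 35.5 to 93.7 CPM against 81.3 to 720 CPM. In the chronic cortex 8 of 10 mural markers (163 to 187 CPM against 192 to 206 CPM) and 7 of 10 astrocyte markers (3581 to 4405 CPM against 4431 to 5017 CPM) were lower with ethanol, with 0 called. Other sums stood apart too, among them myelin in the chronic dHPC (5507 to 6400 CPM with ethanol against 6952 to 8012 CPM with saline). Dentate granule neuron markers there stood at 421 to 582 CPM against 266 to 417 CPM. In the chronic vHPC endothelial sums were 167 to 175 CPM against 195 to 216 CPM. Mural sums there were 146 to 167 CPM against 182 to 206 CPM. In the chronic DS endothelial sums were 243 to 273 CPM against 201 to 241 CPM. The part of these markers in the values of Plin4, Fkbp5 and Tgm2 was not tested.

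The interaction of paradigm and treatment, the chronic ethanol difference minus the acute one, was positive for Tgm2 in 5 of 5 regions and negative for Fkbp5, Pdk4 and Arrdc2 in 5 of 5. Tgm2 ranged from 0.28 ± 0.28 in the VS to 0.66 ± 0.14 in the cortex on the log2 scale. Arrdc2 ranged from -1.08 ± 0.49 in the VS to -0.31 in the cortex, and Sgk1 reached -0.90 ± 0.34 in the DS but was 0.04 in the vHPC. Plin4 stood between -0.22 and -0.05 in 4 regions and at 1.07 ± 0.48 in the vHPC. EdgeR called 0 of the 10 in every region, as it did 0%, 0%, 0%, 0% and 0% of all genes, with 2, 4, 3, 3 and 1 of the 10 at an unadjusted p below 0.05, beside 8.19%, 4.48%, 11.5%, 4.16% and 4.62% of all genes. DESeq2 called 1 of the 10, Tgm2 in the cortex, beside 0.084%, 0.00745%, 4.62%, 0.019% and 0.0191% of all genes in the 5 regions. By edgeR, then, the acute and chronic responses were not shown to differ for any of these genes.

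Most of the 10 genes stood lower in chronic than in acute saline mice, though edgeR called 0 of them in any region. The number of injections and anything else that set these cohorts apart cannot be told apart. After 10 saline injections against 1, Plin4 was lower in all 5 regions, by 0.91 to 1.79 on the log2 scale. In the vHPC it stood at 15.9, 26.8 and 11.3 CPM in acute saline mice and at 3.39, 8.15 and 4.23 CPM in chronic saline mice, and in the dHPC at 16.4, 31.1 and 14.4 CPM against 7.92, 12.9996 and 6.36 CPM. These 2 regions were the ones with no overlap, and in the cortex, DS and VS 1 acute saline mouse each (6.31, 8.23 and 5.86 CPM) lay among the chronic ones. Chronic ethanol mice, at 15.7 to 23.2 CPM in the dHPC and 16.4 to 26.0 CPM in the vHPC, were in the range of the acute saline mice, and the chronic ethanol comparison has the lower chronic saline group as its base.

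Tsc22d3 was also lower in chronic saline mice in all 5 regions, by 0.14 to 0.71. In the vHPC its values were 89.0, 64.5 and 81.7 CPM in acute and 46.3, 49.6 and 49.7 CPM in chronic saline mice (-0.71 ± 0.13). Tgm2 was lower in the cortex (-0.46 ± 0.09), dHPC (-0.40 ± 0.12) and vHPC (-0.53 ± 0.19) with no overlap, and stood at -0.01 and -0.06 in the DS and VS. Fkbp5 was lower with no overlap in the cortex (-0.51 ± 0.09), the VS (-0.36 ± 0.12) and the DS (-0.16 ± 0.11) and stood at -0.05 in the dHPC and 0.13 ± 0.14 in the vHPC. Sgk1 was apart in the vHPC alone (-0.39 ± 0.16), Errfi1 in the cortex alone (-0.26 ± 0.08), and Nr3c1 was within 0.19 of 0 in all regions.

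**Figure D3:**
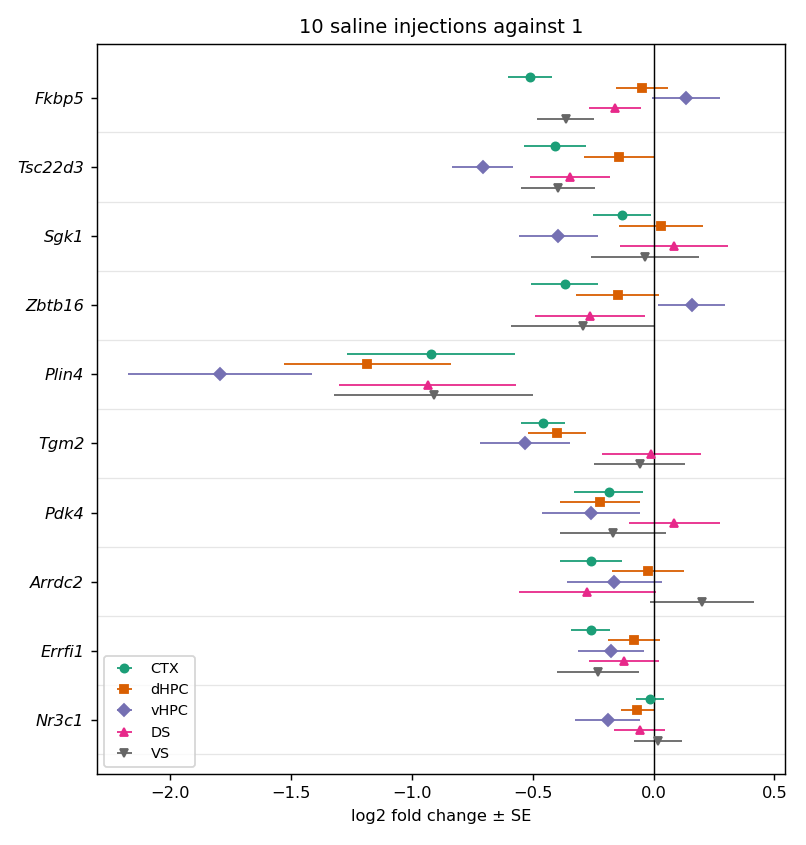
Log2 fold change (± SE) of chronic saline over acute saline for each of the 10 genes in each region. Plin4 lies between -1.79 and -0.91 in the 5 regions and Tsc22d3 between -0.71 and -0.14, while Nr3c1 lies close to 0.

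Of the 10 genes, 10, 9, 8, 8 and 8 were lower in chronic saline, with median log2 differences of -0.31, -0.11, -0.22, -0.14 and -0.20. EdgeR called 0 of them, beside 0.00772%, 0.00382%, 0%, 3.17% and 0% of all genes, with 6, 2, 4, 1 and 2 at an unadjusted p below 0.05, beside 7.13%, 7.7%, 11%, 15.1% and 5.89% of all genes. DESeq2 called 2 in the cortex (Fkbp5 and Tgm2), 2 in the vHPC (Tsc22d3 and Plin4) and 0 in the others, beside 1.03%, 0.871%, 2.43%, 4.97% and 0.149% of all genes. The numbers apart and lower were 3, 2, 4, 1 and 1, beside 6.94%, 6.85%, 7.49%, 16.8% and 5.77% of all genes. These comparisons share their saline mice with the ethanol comparisons, so a low chronic saline value moves both. In the DS all 10 choroid plexus markers were called higher in chronic saline (1986 to 7456 CPM against 25.5 to 305 CPM). Marker sums stood apart elsewhere too. In the vHPC dentate granule neuron markers stood at 290 to 513 CPM in chronic and 147 to 278 CPM in acute saline. In the dHPC myelin markers stood at 6952 to 8012 CPM against 8943 to 10240 CPM. In the VS endothelial markers stood at 219 to 230 CPM against 183 to 194 CPM. Mural markers there stood at 179 to 184 CPM against 139 to 163 CPM. The part of these markers in the values of the 10 genes was not tested.

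Isoform counts were compared along these genes. They are given as ratios of group means with no test, since isoforms that share exons share reads. Of the 13 annotated isoforms of Sgk1, the 11 over the gene body had median log2 ratios of acute ethanol to saline of 0.67 to 0.82 over the 5 regions and were higher in 5 of 5. The other two end upstream of the body: Sgk1-211 (10:21758268-21775044) had a median of -0.06 and was higher in 2 of 5 regions, and Sgk1-205 (10:21804369-21866301) had a median of 0.34 and was higher in 4 of 5. In the dHPC Sgk1-211 stood at 2.63 ± 0.46 CPM in saline mice (SD, n = 3) and 2.24 ± 0.60 CPM in ethanol mice (SD, n = 4), while Sgk1-201, whose start lies 965 bases after the palindrome shown above, stood at 70.9 ± 18.1 and 138 ± 31.5 CPM. In the striatum the upstream isoforms were higher with ethanol: Sgk1-211 ran from 3.84 to 4.54 CPM with saline and from 4.90 to 8.85 CPM with ethanol in the VS (log2 ratio 0.63), and Sgk1-205 had a ratio of 0.64 in the DS, near the 0.70 and 0.74 of Sgk1-201 in the VS and DS. The upstream isoforms are measured at low levels, with a mean of 3.72 CPM for Sgk1-211 and 2.76 CPM for Sgk1-205, and whether their ratios differ from those of the body was not tested.

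**Figure D4:**
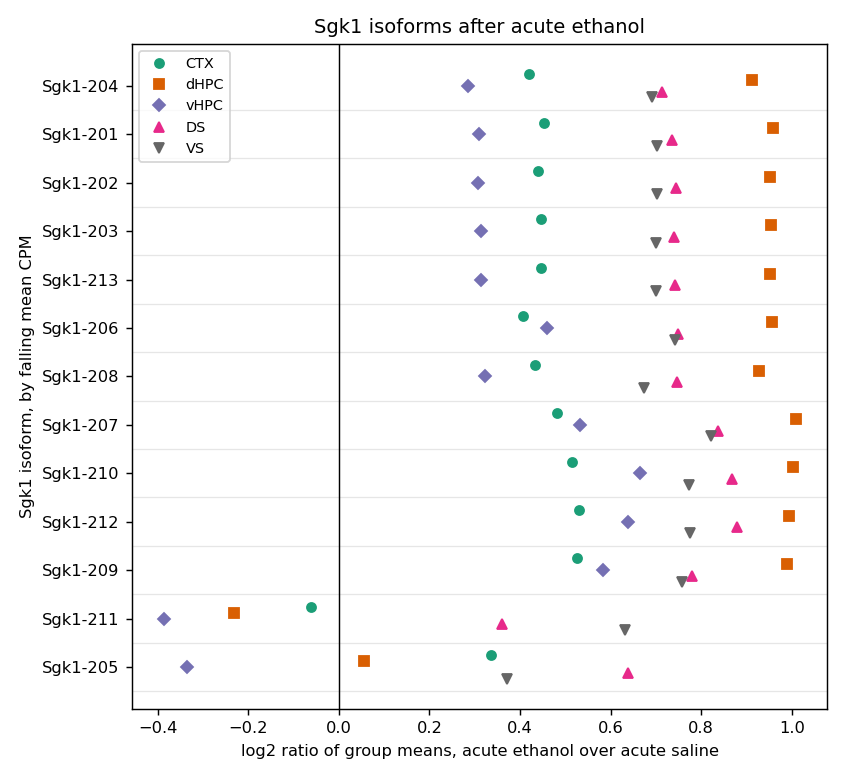
Log2 ratio of group means, acute ethanol over acute saline, for each Sgk1 isoform in each of the 5 regions, with isoforms ordered by falling mean CPM. The 11 isoforms over the gene body lie to the right of 0 in 5 of 5 regions, whereas Sgk1-211 and Sgk1-205 spread from -0.39 to 0.64.

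For Fkbp5, 11 of 14 isoforms had at least 5 counts in every library, and all 11 were higher in 5 of 5 regions after acute ethanol (median log2 ratios 0.63 to 0.80). Of the 4 Tgm2 isoforms, the 3 that passed the same count minimum were higher with chronic ethanol in 5 of 5 regions (medians 0.52 to 0.69), while Tgm2-203, which did not, stood at -0.35 in the VS, and both Plin4 isoforms were alike in the acute (medians 1.15 and 1.19) and the chronic paradigm (1.19 and 1.20). The 9 isoforms of Nr3c1 had medians of -0.29 to -0.12 after acute ethanol.

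The level of most of these genes differed between regions, which the choice of genes did not use. Regions were compared over all conditions with the mouse as a block, within a library batch. Zbtb16 showed the widest difference. Its level in saline mice was 68.4 ± 10.0 CPM in the vHPC, 18.6 ± 4.4 CPM in the DS and 11.3 ± 3.7 CPM in the VS (SD), so that every vHPC value lay above every striatal one. It was 4.43-fold higher in the vHPC than in the DS (log2 2.15 ± 0.13, edgeR FDR 3.01e-09, 24 samples, 11 mice with both regions) and 5.51-fold higher than in the VS (2.46 ± 0.13, FDR 6.63e-09, 24 samples, 9 mice with both), and between the cortex and dHPC it did not pass the test (0.03 ± 0.07, FDR 0.807).

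Fkbp5 was higher in the dHPC than in the cortex (log2 0.85 ± 0.10, edgeR FDR 8.82e-06, 25 samples, 9 mice with both) and higher in the vHPC than in the DS (0.55 ± 0.07, FDR 3.83e-06) and the VS (0.65 ± 0.08, FDR 1.34e-05). Between VS and DS it did not pass (-0.06 ± 0.05, FDR 0.372, 10 mice with both). In saline mice it stood at 65.7 ± 7.2 CPM in the dHPC against 31.6 ± 6.8 CPM in the cortex, and at 76.9 ± 11.2 CPM in the vHPC. Errfi1 was likewise higher in the dHPC than the cortex (0.63 ± 0.04, FDR 1.35e-08) and in the vHPC than the DS (0.58 ± 0.06, FDR 6.54e-07) and VS (0.83 ± 0.07, FDR 4.00e-07).

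Sgk1 stood highest in the DS among the 3 regions of its batch. It was lower in the vHPC than in the DS (log2 -0.46 ± 0.10, edgeR FDR 0.00165) and lower in the VS than in the DS (-0.40 ± 0.05, FDR 1.52e-05). Between vHPC and VS Sgk1 did not pass the test (-0.10 ± 0.12, FDR 0.545). Plin4 was 2.06-fold higher in the dHPC than in the cortex (1.04 ± 0.11, FDR 2.24e-06) and passed in none of the 3 other comparisons. Nr3c1 was lower in the dHPC than in the cortex (-0.38 ± 0.03, FDR 3.42e-07), in the vHPC than in the DS (-0.37 ± 0.06, FDR 0.000126) and in the VS than in the DS (-0.24 ± 0.05, FDR 0.0017).

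Tsc22d3 was lower in the dHPC than in the cortex (log2 -0.24 ± 0.04, edgeR FDR 0.000156) but higher in the vHPC than in the DS (0.26 ± 0.05, FDR 0.000863) and the VS (0.28 ± 0.08, FDR 0.0167). Pdk4 was higher in the dHPC than in the cortex (0.53 ± 0.07, FDR 2.76e-05) and lower in the vHPC than in the DS (-0.27 ± 0.09, FDR 0.0231). Arrdc2 was higher in the dHPC than in the cortex (0.37 ± 0.08, FDR 0.00157) and lower in the VS than in the DS (-0.37 ± 0.13, FDR 0.0403). Tgm2 was the most even of the 10, passing only between dHPC and cortex (0.17 ± 0.07, FDR 0.0523).

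Per kilobase of exon, which allows levels of different genes to be set side by side, Nr3c1 stood at 16.1 in the cortex and 12.2 in the dHPC of saline mice (CPM per kb), while Nr3c2, the mineralocorticoid receptor, stood at 5.57 and 26.4. In the vHPC these levels were 10.4 and 28.5, with 13.4 and 8.46 for the DS and 11.8 and 7.25 for the VS, so that Nr3c2 was the higher of the 2 receptor genes in both hippocampal regions and the lower in the other 3. Fkbp5 stood at 3.36, 6.98, 8.16, 4.87 and 4.73 on the same scale. Hsd11b1, the enzyme that regenerates active glucocorticoid, stood at 2.96, 4.56, 5.21, 1.34 and 0.943. Of the region calls, 7 of the 10 genes were higher and 2 lower in the dHPC than the cortex, 4 higher and 3 lower in the vHPC than the DS, 4 higher and 0 lower in the vHPC than the VS, and 0 higher and 5 lower in the VS than the DS. Of all genes tested, 57.8%, 55.5%, 46.9% and 34.8% were called in these 4 comparisons, so calls here were common among all genes.

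For 7 of the 10 genes the scatter within groups was shared between regions of a mouse. For each sample the deviation of log2 (CPM + 0.5) from its group mean was taken, and for mice sampled in several regions these deviations were correlated between regions, over 96 region pairs from 15 mice. The pairs share mice, so no test is given. Sgk1 had an r of 0.65, above 99.7% of genes (median over genes 0.054). Fkbp5 (0.52) and Plin4 (0.52) lay above 98.9%, and Zbtb16 (0.45), Errfi1 (0.44), Arrdc2 (0.42) and Tsc22d3 (0.41) above at least 97%. Tgm2 (0.10), Pdk4 (0.07) and Nr3c1 (0.0046) lay above 61.4%, 55.1% and 36% of genes.

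The chronic ethanol mice show the pattern for Sgk1. Mouse 4 lay 0.59 to 0.80 above its group mean on the log2 scale in the DS, VS, dHPC and vHPC, and mouse 1 lay 0.01 to 0.44 below it in each of its regions. It was mouse 4 that had 119 CPM of Sgk1 in the dHPC where the other two had 50.6 and 52.6 CPM. Acute ethanol mouse 2 was low in each of its regions for Sgk1 (by 0.25 to 0.64) and Arrdc2 (by 0.45 to 1.01) and is the ethanol mouse that lay among the saline mice for Arrdc2 in the VS. Acute ethanol mouse 5 was high for Fkbp5 in all its regions (by 0.13 to 0.30), and acute saline mouse 2 was low for Plin4 (by 0.09 to 0.99).

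**Figure D5:**
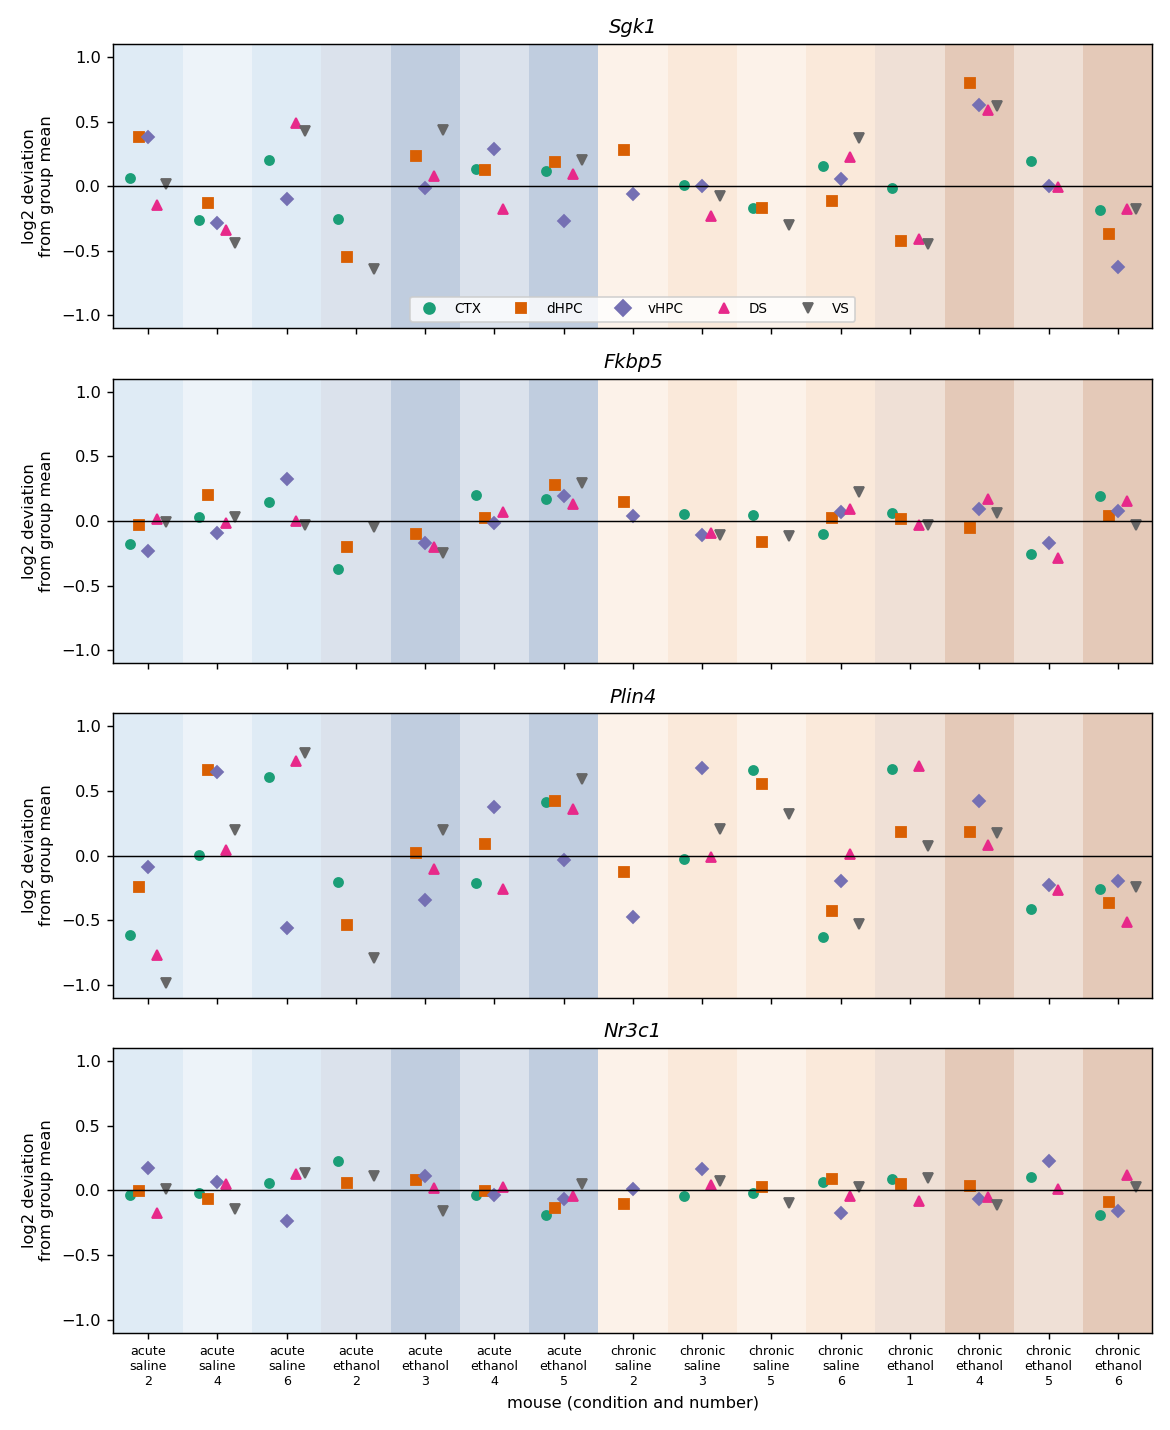
Deviation of log2 (CPM + 0.5) from the group mean for 4 of the genes, by mouse and condition, with 1 point for each region. Regions of 1 mouse lie on the same side of 0 for many mice, as for Sgk1 in chronic ethanol mouse 4, at 0.59 to 0.80.

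The relation was also there between library batches, over the 57 pairs that set a cortex or dHPC sample against a vHPC, DS or VS sample of the same mouse: r was 0.69 for Sgk1, 0.63 for Plin4, 0.52 for Arrdc2, 0.48 for Fkbp5, 0.39 for Zbtb16, 0.39 for Errfi1 and 0.37 for Tsc22d3. Within the vHPC, DS and VS batch (30 pairs) it was 0.60 for Sgk1, 0.59 for Fkbp5 and 0.57 for Zbtb16 but 0.26 for Plin4 and 0.11 for Arrdc2. Within the cortex and dHPC batch there are 9 pairs, with 0.52 for Sgk1, 0.56 for Fkbp5 and -0.24 for Zbtb16. For Nr3c1 the value near 0 joins opposite ones, 0.73 within the cortex and dHPC batch and -0.25 within the other, with 0.06 between them.

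For some pairs of the 10 genes the same deviations also ran together, over 61 samples, which share mice and libraries. The highest r among the 10 genes was that of Sgk1 with Arrdc2 (0.70), followed by Tsc22d3 with Arrdc2 (0.62), Tsc22d3 with Sgk1 (0.61), Fkbp5 with Zbtb16 (0.52) and Tsc22d3 with Zbtb16 (0.52). Other pairs stood closer to 0, among them Fkbp5 with Plin4 (0.15), Sgk1 (0.11) and Tgm2 (0.08), and Sgk1 with Zbtb16 (0.02). The 10 genes thus did not run together as a set. Fkbp5 and Nr3c1 ran opposite (-0.51). Of 16592 genes with a mean of at least 10 counts in every region, the 8 most like Fkbp5 by this measure were Pwwp4a (0.63), Smim3 (0.61), Capzb (0.60), Pwwp4-ps (0.60), Sult1a1 (0.59), Tmem267 (0.59), Pwwp4b (0.59) and Gm53015 (0.57), with a median r over genes of 0.014. Pwwp4a, Pwwp4b and Pwwp4-ps are members of 1 gene family by name, so a read that maps to more than 1 of them counts for every one.

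A wider list of 28 other genes known to respond to glucocorticoids was set beside the 10. This list and the list of receptor machinery below were also chosen with earlier results of these data known. Their values are therefore a description and no support for those of the 10. The shares of all genes that stood higher or lower are not given, so nothing is read from the counts of direction below. After acute ethanol, edgeR called 5 higher and 1 lower of 27 tested in the cortex, 2 higher of 28 in the dHPC, 5 higher and 1 lower of 26 in the DS, and 0 of 27 and 0 of 26 in the vHPC and VS, beside the shares of all genes given above. DESeq2 called 8, 9, 9, 8 and 2 higher and 1, 0, 0, 2 and 0 lower, beside its shares of all genes given above. Cdkn1a, the cell cycle inhibitor p21, differed by 0.46 ± 0.09 in the cortex and 1.1 ± 0.19 in the DS (both called) and by 1.74 ± 0.32 in the dHPC (not called by edgeR). Mt2, a metallothionein that binds zinc, was called in the cortex (0.51 ± 0.09) and the DS (0.35 ± 0.08) and was apart and higher in 5 of 5 regions. Also called higher were Mt1 (0.21), Map3k6 (0.62) and Mfsd2a (0.43), a lipid transporter of the blood-brain barrier, in the cortex, Mfsd2a (0.60) and the astrocyte connexin Gjb6 (0.50) in the dHPC, and Hif3a (0.79), the transcription factor Klf9 (0.33) and Sesn1 (0.33) in the DS. Dusp1, a phosphatase of MAP kinases, was called lower in the cortex (-0.78 ± 0.16) and the DS (-0.55 ± 0.13), the opposite direction to the others.

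With chronic ethanol 27, 27, 26, 27 and 26 of the 28 were tested, and edgeR called 0 in every region. DESeq2 called 0, 4, 0, 0 and 2, beside 0.835%, 1.25%, 1.17%, 0.878% and 2.46% of all genes. Of those tested, 20, 23, 17, 20 and 20 stood higher, with medians of 0.20, 0.20, 0.11, 0.24 and 0.24. In chronic against acute saline 26 of 27 stood lower in the cortex, and 16, 16, 22 and 22 of 26 in the other 4 regions, with medians of -0.37, -0.10, -0.06, -0.24 and -0.18. Of these edgeR called Cdkn1a in the cortex (-0.81 ± 0.10), beside 0.00772% of all genes, and Mertk and Dusp1 in the DS, beside 3.17%. It called none in the dHPC, vHPC and VS. DESeq2 called 8 lower in the cortex, 3 lower in the DS and 2 in the vHPC (1 higher and 1 lower). It called 0 in the dHPC and VS. The DESeq2 shares of all genes were 1.03%, 0.871%, 2.43%, 4.97% and 0.149% in the 5 regions. A second list held 15 genes of the receptor machinery (the mineralocorticoid receptor, chaperones, co-chaperones, coregulators, Hsd11b1 and the exporter Abcb1a). Of these, edgeR called 3 lower in the acute DS, beside 5.15% of all genes there. It called 0 in the other 4 acute and the 5 chronic comparisons, beside the shares given above. The 3 called in the DS were Fkbp4 (-0.34 ± 0.09), the co-chaperone that opposes FKBP5 on the receptor complex, and the chaperones Hsp90aa1 (-0.23 ± 0.07) and Hspa8 (-0.23 ± 0.06). After acute ethanol DESeq2 called 1 lower in the cortex (Abcb1a), 1 in the vHPC (Hsp90aa1) and 4 in the DS (the same 3 with Hsp90ab1). With chronic ethanol it called Crebbp lower in the cortex and Nr3c2 lower in the vHPC. Its shares of all genes are those given above. The median of the 15 lay between -0.17 (DS) and 0.01 (dHPC) after acute ethanol, where Fkbp5 itself stood at 0.42 to 0.93.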

How the data were processed

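Gene and isoform counts were used as deposited: raw counts, with no normalization or filter. Per the paper's methods, the authors used Cutadapt 5.0 for adapters, STAR 2.7.10a for alignment (GRCm39) and featureCounts 2.0.6 for exons of the Ensembl annotation. Reads mapping to several places or overlapping several features were counted for each. The reverse-stranded setting was used for all libraries, but the cortex and dHPC kit does not mark strand, so there reads of a gene and of an overlapping gene on the other strand cannot be told apart (Plin4 with Hdgfl2, Tgm2 with Rprd1b).

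The 10 genes, the further lists and the comparisons were chosen with earlier results of these data known. Genes reaching 5 counts in 2 or more samples of any group were tested with edgeR's quasi-likelihood F test (4.0.16, limma 3.58.1, R 4.3.3, TMM), Benjamini-Hochberg over all genes of a comparison, FDR below 0.1. The fits held only the groups compared, all 4 groups of a region for the interaction, or 2 regions with the mouse, as the labels give it, as a block. DESeq2 1.42.0 (Wald test), the authors' tool, was an alternative, with other filters and size factors, a replicate block and each replicate left out. CPM use TMM over all 62 libraries. Samples of a group are separate mice. Genes of the 2 further lists were named where edgeR called them in an ethanol comparison, and the 8 genes most like Fkbp5 by correlation. Motifs were searched as exact letters. The statistics were tested on simulated data. Figures used Python 3.11.15, numpy 2.4.6, pandas 2.3.3 and matplotlib 3.10.9. The authors' own comparisons were not used.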

Additional observations from a re-analysis of the deposited data

How the results depend on the processing

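For the number of the 10 genes called, no change in direction was found, and DESeq2's size factors in edgeR (24 results), a filter of at least 10 counts in every sample (24), inclusion of DS chronic saline replicate 2 (5) and a condition term in place of the mouse (4) left every count within 1.5 times. Without a low-count filter edgeR called, after acute ethanol, 5, 5, 2 and 6 in the cortex, dHPC, vHPC and VS. Of all genes it then called 1488 of 37549, 253 of 37834, 263 of 29858 and 536 of 30135. With chronic ethanol it called 1, 1, 3 and 2 in the cortex, vHPC, DS and VS. All-gene calls there were 104 of 37059, 790 of 29649, 475 of 29674 and 569 of 30319. Between the saline groups it called 5, 2 and 2 in the cortex, vHPC and DS. All-gene calls were 336 of 37620, 457 of 29664 and 1628 of 29246. For the interaction it called 2, 2, 1 and 1 in the cortex, vHPC, DS and VS. All-gene calls were 314 of 39881, 868 of 32149, 235 of 32790 and 195 of 32664. In each of these comparisons more of all genes were called than with the filter. DESeq2 called 6, 3, 3 and 2 in the acute dHPC, vHPC, DS and VS, 2, 3, 1 and 2 in the chronic cortex, dHPC, vHPC and VS, 2 and 2 between saline groups in the cortex and vHPC, and 1 for the interaction in the cortex. The shares of all genes for these DESeq2 calls are those given above. DESeq2 with DS chronic saline replicate 2, chosen after seeing the data, called 1 in the chronic DS, beside 205 of all genes. The causes were not tested.

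Leaving out each mouse gave 1 to 7 calls in the acute cortex, 0 to 2 in the acute dHPC (2 without ethanol 2, 1 without ethanol 4), 0 to 2 in the acute vHPC (2 without saline 6), 1 to 5 in the acute DS, 0 to 4 in the acute VS (4 without ethanol 2), 0 to 1 in the chronic vHPC (ethanol 4), 0 to 2 in the chronic VS (saline 5), 0 to 1 between saline groups in the cortex (acute 2 or chronic 3), 0 to 3 in the vHPC (acute 6) and 0 to 1 for the vHPC interaction (acute saline 6), and 0 in the others. Replicate numbers mark different mice in different conditions, and same-numbered samples deviated with r of -0.33 to 0.37 over all 21 pairs (-0.33 to 0.16 over the 11 in comparisons that share at least 2 numbers), so they were not taken as paired. A replicate block, run in 10 comparisons, called 5 in the acute cortex, beside 789 of 25905 genes, and left the other 9 within 1.5 times. For the fits that left out a mouse the shares of all genes are not given, so nothing is read from their counts.

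Between regions, a condition term in place of the mouse let Arrdc2 (vHPC against VS, 0.38, FDR 0.0347) and Pdk4 (VS against DS, -0.22, FDR 0.0972) pass by edgeR and Zbtb16 (VS against DS, FDR 0.243) miss, and with DS chronic saline replicate 2, Tsc22d3 no longer passed for vHPC against DS (0.52, FDR 0.455). Groups of mostly 3 mice limit precision: the SE of Plin4's log2 fold change reached 0.42. Of the 8 genes most like Fkbp5, 7 were shared with a pseudocount of 2.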
